A study of Mus musculus with 3 samples.

Results

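The genes described here encode fibroblast growth factors (FGFs) and their receptors: the ligand genes Fgf1, Fgf2, Fgf7, Fgf10 and Fgf18, the receptor kinase genes Fgfr1, Fgfr2, Fgfr3 and Fgfr4, and Fgfrl1, a receptor-like gene. They were chosen by gene symbol, and all 10 were found among the 19938 genes that had a probe set of their own on the array. A rule to keep the brightest of several probe sets by mean log2 intensity over all 3 arrays had no effect, since each of the 10 genes had 1 probe set. The 10 were proposed with earlier results of these data known, so a share of called genes among them is given as a description beside the share of all genes called.

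The study measured mouse bone marrow stromal cells, sorted at baseline from tibia, femur and pelvis, on 3 single-colour Affymetrix arrays. On 2 arrays were reticular cells rich in Cxcl12, known as CAR cells, which came from 2 mice with the CXCL12-GFP knock-in allele, in which GFP reports the Cxcl12 locus. On 1 array were PDGFRa+ Sca+ CD45- lineage- cells, called PaS cells below, combined from 3 Prx1-Cre Rosa26Ai9/+ Cxcl12gfp/+ mice. Both genotypes carry GFP at Cxcl12, and the Prx1-Cre and Rosa26Ai9 alleles, a limb mesenchyme Cre driver and a Cre reporter, stand in the PaS mice alone, so genotype and cell type cannot be told apart. Ages are not given in the labels, and the PaS group has no replicate. Total RNA of 500 pg to 50 ng was amplified before labelling.

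Fibroblast growth factors that act as receptor ligands are secreted proteins that signal by bringing together receptor tyrosine kinases, with heparan sulfate chains as part of the complex. Mesenchymal cells make Fgf7 and Fgf10, which act mainly on epithelial cells through the b splice form of Fgfr2, whereas the c splice forms of Fgfr1, Fgfr2 and Fgfr3 serve mesenchymal cells. In bone, Fgf2 and Fgf18 act on osteoblast precursors and cartilage, Fgfr3 restrains growth of growth plate cartilage, and Fgf1 and Fgf2 act on blood progenitors in culture. The array gives 1 value per gene, so these splice forms are not separated here.

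Of the 10 genes, 3 were higher in CAR cells than in PaS cells and 0 were lower (limma, Benjamini-Hochberg adjusted p under 0.05 over all 19938 genes). They were the ligand gene Fgf7, the receptor gene Fgfr2 and the receptor-like gene Fgfrl1. Over all genes, 8.56% were called higher in CAR cells and 6.42% lower. Unadjusted p (limma) was under 0.05 for 5 genes in the higher and 1 in the lower direction. The share of all genes under that unadjusted threshold was not counted. It is at least 8.56% higher and 6.42% lower, since each gene past the adjusted threshold is also past the unadjusted threshold. That bound is loose: Fgf10, the 1 lower gene, had unadjusted p = 0.0292 but adjusted p = 0.103 (limma). The 5 and the 1 are thus not read as an excess over all genes. The median log2 difference of the 10 genes was 0.84, against -0.10 over all genes. Both CAR arrays lay above the PaS array for 6 of the 10 genes and below it for 3, against 37.4% and 46.8% of all genes. At least 2-fold higher on both CAR arrays were 5 of the 10, against 10.9% of all genes, and 0 were at least 2-fold lower, against 8.9%. That count takes the dim PaS values of Fgf7 and Fgfr3 as measured. The number called higher depended on the setting: it was 5 after centring on array medians (12.3% of all genes), 5 with a robust prior (10.9%), 5 of the 7 tested among the brighter genes (20.7%), and 2 with an intensity trend in the variance (8.09%). Sorted bulk samples cannot tell apart fewer cells of a type and less RNA per cell.

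The arrays were read against the genes of the sorts first. Cxcl12 and Lepr, the chemokine and the leptin receptor that mark CAR cells, exceeded the PaS array on the CAR arrays by 9.63-fold and 52.1-fold. Pdgfra, the surface receptor of the PaS gate, was 10.7-fold higher in CAR cells (log2 intensity 7.52 and 7.97 on the CAR arrays, 4.33 on the PaS array), and Ptprc, which encodes CD45, stood at 5.11 and 5.01 on the CAR arrays, against 8.27 on the PaS array. Both genes run against the gate named in the label of the PaS array, and each direction given here holds for the array labelled PaS. Of 11 measured sort and niche genes, Cxcl12, Lepr and Pdgfra among them, 9 were called higher in CAR cells and 2 lower. The 2 lower were Thy1, with intensities of 11.8 and 12.9 on the CAR arrays, against 204 on the PaS array, and Cd34, at 5.78 and 4.68 against 26.5. Ly6a, the gene of the Sca-1 antigen, is not analysed here. Blood and endothelial markers moved with the comparison. Of 10 leukocyte genes 8 were lower in CAR cells and 0 higher, with summed intensities of 324 and 412 on the CAR arrays, against 2349 on the PaS array. Of 10 neutrophil genes 8 were lower and 0 higher (sums of 3205 and 2942 against 16881), of 10 endothelial genes 5 and 0 (107 and 100 against 312), and of 10 chondrocyte genes 3 and 0 (174 and 210 against 1803). On the PaS array most of the chondrocyte sum was Prg4, at 1411, against 18 and 49 on the CAR arrays. Chad and Comp were the others called lower, and the other 7, Col2a1 and Sox9 among them, were not called. Of 5 measured osteoblast genes 3 were higher and 0 lower (2241 and 3306 against 241). On the CAR arrays most of the osteoblast sum was Ibsp, at 2071 and 3096, against 112 on the PaS array. Col1a1 stood at 39.4 and 49.4 on the CAR arrays, against 77.9 on the PaS array, and was not called. No marker was listed at 0. The part of these cells in the FGF results was not tested.

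Since the sources used here give no detection calls, the 1194 olfactory and vomeronasal receptor genes on the array, which are hardly used outside the nose, served as a stand-in for background. On a log2 scale their 95th percentile was 3.50 and 3.25 for the CAR arrays, against 4.02 for the PaS array. A value at or below that level is called background-like here. Levels of different genes rest on different probes and are not set against each other.

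Fgf7 had the largest difference of the family. This gene, also known as keratinocyte growth factor, had an intensity of 714 and 822 on the CAR arrays (log2 values 9.48 and 9.68), against 9.13 on the PaS array (log2 value 3.19). Both CAR arrays were far above the PaS array, whose value was background-like. The log2 difference was 6.39 ± 0.29 (SE; limma adjusted p = 0.0081), or 83.9-fold, with a 95% interval from 5.66 to 7.12. Because the PaS value was background-like, the fold is better read as a bound, at least 47.4-fold (5.57 log2 units) against the olfactory receptor level. The CAR arrays were 0.20 log2 units apart for Fgf7, less than the median distance of 0.27 over all genes.

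The closest relatives of Fgf7 did not pass the test. Fgf10, which shares the epithelial receptor with Fgf7 and drives lung and limb budding, had log2 values of 2.17 and 2.32 on the CAR arrays, against 3.09 on the PaS array. All 3 values were background-like, so its log2 difference of -0.85 ± 0.28 (SE; limma adjusted p = 0.103) is no measure of a change in expression. Fgf3 and Fgf22, which belong to the same subfamily, did not pass either (limma adjusted p = 0.416 and 0.893). Fgf3 was background-like on all 3 arrays and Fgf22 on the PaS array, so their differences are not given as measures of a change.

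Fgf1 and Fgf2, ligands without a classical signal peptide, did not pass the test. Fgf1 had log2 values of 3.24 and 3.68 on the CAR arrays, against 2.94 on the PaS array, and only the value of CAR array 2 passed the background level. Its log2 difference was 0.52 ± 0.32 (SE; limma adjusted p = 0.311, 95% interval -0.30 to 1.34), and it became -0.42 when background-like values were raised to that level. Fgf2 had log2 values of 4.63 and 3.76 on the CAR arrays, against 3.91 on the PaS array, so that the PaS value lay between the CAR arrays. That PaS value was background-like, while both CAR values passed the background level of their arrays. The log2 difference was 0.18 with the PaS value of Fgf2 raised to that level. The log2 difference of Fgf2 was 0.29 ± 0.43 (SE; limma adjusted p = 0.674, 95% interval -0.81 to 1.38), and -0.15 without CAR array 1. The CAR arrays were 0.87 log2 units apart for Fgf2, close to the 95th percentile of 0.91 over all genes.

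Fgf18, a ligand of skeletal growth that acts on cartilage and osteoblast precursors, had log2 values of 3.86 and 3.71 on the CAR arrays, against 4.23 on the PaS array. All 3 values were slightly above the background level, and both CAR arrays lay below the PaS array. The log2 difference of -0.44 ± 0.28 (SE) did not pass the test (limma adjusted p = 0.321), with a 95% interval from -1.16 to 0.28.

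**Figure D1:**
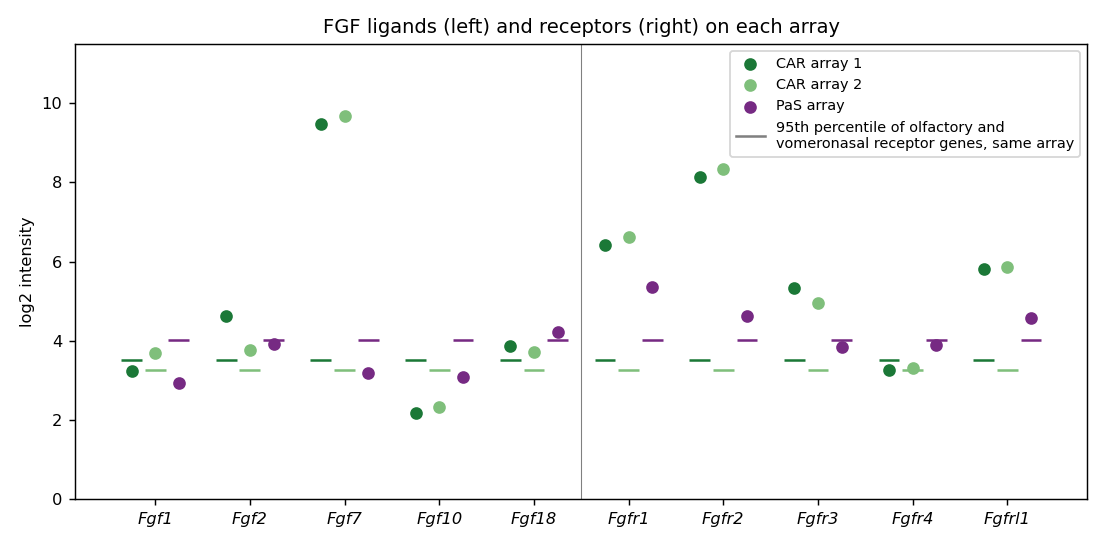
Log2 intensity (vertical axis) of each FGF ligand gene (left) and receptor gene (right) on both CAR arrays and on the PaS array, 1 point each. Short lines mark the 95th percentile of the olfactory and vomeronasal receptor genes on the same array; Fgf7 stands at 9.48 and 9.68 on the CAR arrays and at 3.19, below that line, on the PaS array.

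Among the receptors, Fgfr2 had the largest difference. It encodes a receptor kinase whose splice form decides between epithelial and mesenchymal ligands. Its intensity was 283 and 322 on the CAR arrays (log2 values 8.14 and 8.33), against 24.7 on the PaS array (log2 value 4.63). All 3 values passed the background level, and the groups did not overlap. The log2 difference was 3.61 ± 0.29 (SE; limma adjusted p = 0.0103), or 12.2-fold, with a 95% interval from 2.88 to 4.34 and rank 86 toward CAR cells.

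Fgfrl1, whose product binds FGFs but lacks the kinase domain, had log2 values of 5.80 and 5.87 on the CAR arrays, against 4.57 on the PaS array. It was 2.39-fold higher in CAR cells, a log2 difference of 1.26 ± 0.28 (SE; limma adjusted p = 0.0448). This call was near the threshold. It was lost after quantile normalization (log2 difference 0.79, limma adjusted p = 0.0589) and with an intensity trend in the variance (limma adjusted p = 0.0559).

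Fgfr1 and Fgfr3 had differences of like size and did not pass. Fgfr1, the main receptor kinase of mesenchymal cells, had log2 values of 6.41 and 6.63 on the CAR arrays, against 5.36 on the PaS array, all above the background level. Its log2 difference was 1.16 ± 0.29 (SE; limma adjusted p = 0.0559, 95% interval 0.42 to 1.90). Fgfr3, the receptor kinase that restrains growth plate cartilage, had log2 values of 5.34 and 4.96 on the CAR arrays, against 3.84, a background-like value, on the PaS array. Its log2 difference was 1.31 ± 0.31 (SE; limma adjusted p = 0.0515, 95% interval 0.52 to 2.11). For Fgfr1 each CAR array stood at least 2-fold above the PaS array. For Fgfr3 the log2 difference was 1.14, or at least 2.2-fold, when taken against the background level of the PaS array. Both genes passed the test after centring the arrays on their medians, among the brighter genes (mean at least the median of all), and with a robust prior, at limma adjusted p between 0.0257 and 0.0447. After quantile normalization Fgfr3 passed (limma adjusted p = 0.0301) and Fgfr1 did not (log2 difference 0.57, limma adjusted p = 0.137).

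Fgfr4, a receptor kinase of liver and muscle precursors, had log2 values of 3.27 and 3.31 on the CAR arrays, against 3.88 on the PaS array. Of these, the value of CAR array 2 alone was above the background level, by a small margin. The log2 difference of -0.59 ± 0.28 (SE) did not pass (limma adjusted p = 0.198).

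**Figure D2:**
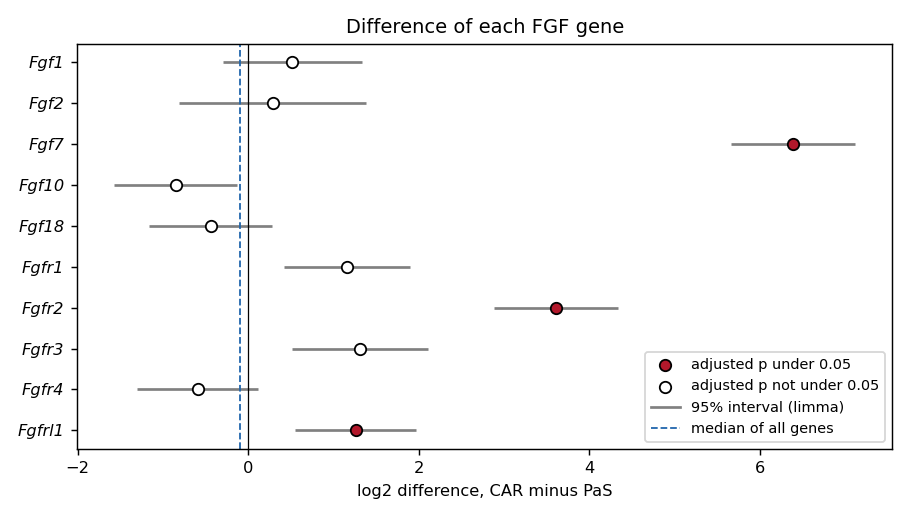
Log2 difference, CAR minus PaS (horizontal axis), of each FGF gene with limma's 95% interval. Filled points passed the test over all genes; Fgf7 at 6.39, Fgfr2 at 3.61 and Fgfrl1 at 1.26 are filled, and the dashed line is the median of all genes at -0.10.

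Set beside the genes of the sorts, the 3 called genes differed in size. The log2 difference was 3.27 for Cxcl12, 3.42 for Pdgfra and 5.70 for Lepr. Fgf7 was above all of these at its measured 6.39 but below Lepr at its bound of 5.57, Fgfr2 at 3.61 was between Pdgfra and Lepr, and Fgfrl1 at 1.26 was below them. No test of these differences between genes was made. The genes whose pattern over the 3 arrays lay closest to each called gene were found by the Euclidean distance between the differences of both CAR arrays from the PaS array. For Fgf7 they were Lepr (distance 0.97), Igfbp4 (1.08) and Esm1 (1.12), distances that rest on its background-like PaS value. For Fgfr2 they were Clec2d (0.05), Calu (0.08) and Tmem176a (0.12). For Fgfrl1 they were Kmt2e (0.01), Spata6 (0.02) and Col5a1 (0.02). With 3 arrays the pattern holds 2 values per gene, so a small distance says only that the sizes of both differences were alike.

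The annotated promoters of the 3 called genes are shown because these genes were higher in the same cells, and they differ in base composition. RefSeq promoter sequences, 250 bases before to 50 after an annotated start, were found for 8 of the 10 genes, with 9 starts in all (build GRCm38.p6). They are printed 5′ to 3′ on the strand of the gene, with CG dinucleotides in capitals. The Fgf7 sequence is chr2:126034408-126034707 on the + strand, that of Fgfr2 is chr7:130266759-130267058 on the - strand, and that of Fgfrl1 is chr5:108693979-108694278 on the + strand.
Fgf7: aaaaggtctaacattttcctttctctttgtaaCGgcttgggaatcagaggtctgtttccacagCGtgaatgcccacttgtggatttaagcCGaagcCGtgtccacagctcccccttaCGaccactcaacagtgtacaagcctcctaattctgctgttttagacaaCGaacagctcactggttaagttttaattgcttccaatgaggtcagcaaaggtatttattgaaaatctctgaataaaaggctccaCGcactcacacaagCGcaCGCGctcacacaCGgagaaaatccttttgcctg
Fgfr2: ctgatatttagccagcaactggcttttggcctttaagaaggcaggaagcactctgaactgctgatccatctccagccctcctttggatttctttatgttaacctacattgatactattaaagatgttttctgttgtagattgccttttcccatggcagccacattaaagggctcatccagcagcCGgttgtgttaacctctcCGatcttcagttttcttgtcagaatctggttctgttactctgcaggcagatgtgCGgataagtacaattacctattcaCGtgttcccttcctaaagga
Fgfrl1: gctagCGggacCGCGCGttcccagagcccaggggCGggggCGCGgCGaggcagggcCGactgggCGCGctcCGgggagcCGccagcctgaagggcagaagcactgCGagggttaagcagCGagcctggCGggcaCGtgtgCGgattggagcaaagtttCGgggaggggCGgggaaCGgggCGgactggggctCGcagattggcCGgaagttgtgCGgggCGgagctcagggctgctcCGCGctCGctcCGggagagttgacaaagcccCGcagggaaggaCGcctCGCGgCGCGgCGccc

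The Fgf7 promoter held 11 CG dinucleotides at 45.7% G and C, that of Fgfr2 held 4 at 43.7%, and that of Fgfrl1 held 37 at 73.7%. Over 32851 annotated promoters of the same length the median was 7 CG dinucleotides and 52.7% G and C. Of the other starts, that of Fgf18 held the most CG dinucleotides, 47. Motifs were searched on both strands as exact letters, and no promoter of these genes held more than 1 of the 3 motifs. The CCAAT box (CCAAT) was found in the promoter of Fgf7, 1 copy, in that of Fgfrl1, 2 copies, and at 1 of the 2 Fgfr3 starts, against 37.4% of all promoters. The TATA box (TATAAA) was found in none of the 9 and in 13.6% of all promoters. The forkhead core (GTAAACA) was found in that of Fgf10 alone and in 3.65% of all. The arrays do not show which start was used, and a match or its absence describes these letters only.

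The other genes named Fgf were followed as a whole list, Fgf11, Fgf12, Fgf13 and Fgf14 among them. Of 17, 0 passed the test in either direction (limma), with unadjusted p under 0.05 for 0 higher and 2 lower genes. The share of all genes under that unadjusted threshold was not counted and is at least 8.56% higher and 6.42% lower. That bound is loose, so the 0 and the 2 are not read as an excess or a lack. The 2 lower genes were Fgf5, at 3.60 and 3.53 on the CAR arrays, against 4.44 on the PaS array, and Fgf17, at 3.14 and 3.36 on the CAR arrays, against 4.19 on the PaS array, with limma adjusted p = 0.093 and 0.0866. Differences ran from -0.94 to 0.64 log2 units with a median of -0.02. After quantile normalization 2 of the 17 were called higher and 3 lower. The 2 called higher were background-like on all 3 arrays in the deposited values. On the CAR arrays 7 and 8 of the 17 genes, and on the PaS array 4, were above the background level. Fgf7 was thus the 1 gene called among the 22 Fgf genes listed, where 8.56% of all genes were called higher and 6.42% lower. The count does not test whether the others differ from Fgf7.

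Extracellular partners of FGFs, which present the ligands or act beside the receptors, were partly higher in CAR cells. Of 19 genes 8 were called higher and 0 lower (limma), with a median log2 difference of 0.28. Over all genes 8.56% were called higher and 6.42% lower. Among the brighter genes (mean at least the median of all) 9 of 12 partners were called higher, against 20.7% of all genes tested. That mean is over 2 CAR arrays and 1 PaS array, so genes bright on the CAR arrays alone pass, Gpc4 and Sdc1 among them. The filter thus favours genes higher in CAR cells, and the 9 of 12 adds no support. Some processing alternatives called Gpc3 lower, as given in the closing section. The glypican gene Gpc4, a heparan sulfate proteoglycan of the cell surface, had log2 values of 5.89 and 6.56 on the CAR arrays, against 2.58 on the PaS array (12.5-fold, limma adjusted p = 0.0129). Sulf1, a sulfatase that trims heparan sulfate outside the cell and thereby damps FGF signals, had 7.44 and 7.99 on the CAR arrays, against 4.23 on the PaS array (11.2-fold, limma adjusted p = 0.0125). The syndecan genes Sdc2 and Sdc1, further heparan sulfate carriers, were 7.49-fold and 7.41-fold higher (limma adjusted p = 0.0119 and 0.0123). The PaS value was background-like for 5 of the 8, Gpc4 and Sdc1 among them, which are at least 4.62-fold and at least 3.34-fold higher against that level. The klotho genes Kl and Klb, co-receptors of the endocrine FGFs, were background-like on all 3 arrays and did not pass. Gpc6, a further glypican gene among the 8, lost its call after quantile normalization.

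Of 22 intracellular transducers 16 were analysed here, and 4 were called higher in CAR cells and 0 lower (limma), with a median log2 difference of 0.63. Over all genes 8.56% were called higher and 6.42% lower. All 16 were among the brighter genes (mean at least the median of all). When only those genes were tested, 4 of the 16 were again called higher, near the share of 20.7% of all genes tested. That share comes after a filter that favours genes higher in CAR cells. Gab1, a docking protein for PI3 kinase and Shp2, had log2 values of 7.16 and 7.06 on the CAR arrays, against 3.61 on the PaS array (11.3-fold, limma adjusted p = 0.0103, and at least 8.55-fold against the background level). Shc1, an adaptor to Ras, was 5.95-fold higher, or at least 4.33-fold against that level. Pik3r1, the regulatory subunit of PI3 kinase, was 3.46-fold and Plcg1, the phospholipase recruited to FGF receptors, 2.81-fold higher (limma adjusted p = 0.0245 and 0.0346). These proteins serve many receptor kinases besides the FGF receptors.

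Of 15 feedback inhibitors and targets of FGF signalling, 5 were called higher in CAR cells and 0 lower (limma), with a median log2 difference of 0.60. Over all genes 8.56% were called higher and 6.42% lower. Among the brighter genes (mean at least the median of all) 6 of 12 of this list were called higher, against 20.7% of all genes tested. Here too the filter passes genes bright on the CAR arrays alone, Etv5 among them, so the 6 of 12 adds no support. Etv5, an ETS factor induced by FGF signals, had log2 values of 5.40 and 5.43 on the CAR arrays, against 2.89 on the PaS array (5.77-fold, limma adjusted p = 0.014, and at least 2.64-fold against the background level). The Ras pathway inhibitors Spry4, Spry1 and Spred2 were 4.03-fold, 3.60-fold and 3.11-fold higher (limma adjusted p = 0.0202, 0.0328 and 0.0278). The call of Spred2 was lost when all probe sets of a gene were averaged. The 5th called gene was Dusp4, a MAP kinase phosphatase, at 2.65-fold, or at least 1.42-fold against the background level. Another phosphatase of that family, Dusp6, which is widely used as a readout of FGF signals and was chosen here after its values were seen, had 5.46 and 6.37 on the CAR arrays, against 5.92 on the PaS array. For Dusp6 the PaS value thus lay between the CAR arrays (log2 difference -0.01 ± 0.45, SE; limma adjusted p = 0.993).

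**Figure D3:**
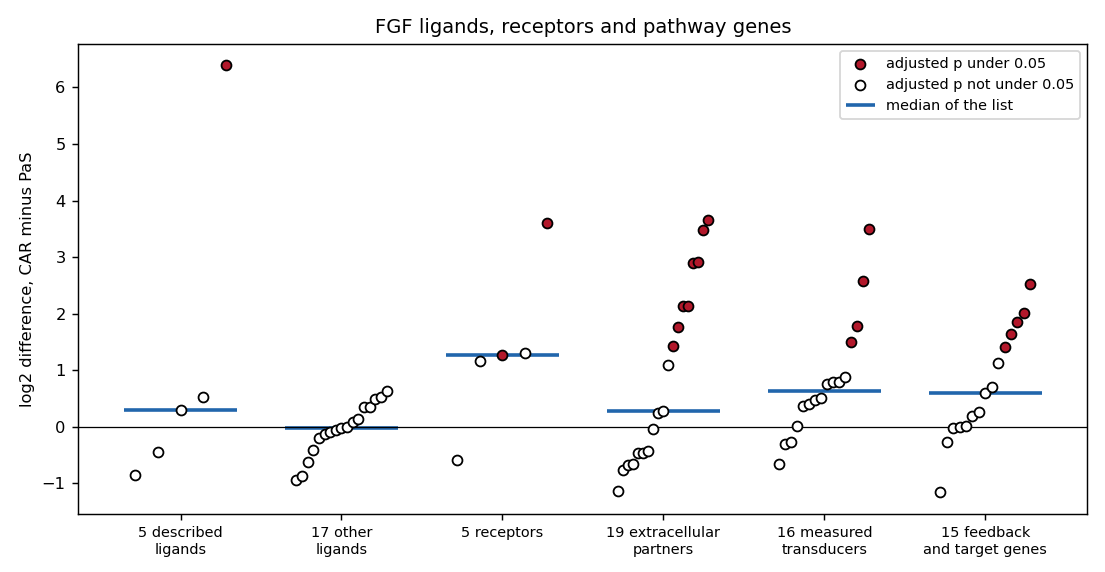
Log2 difference, CAR minus PaS (vertical axis), of each gene in the FGF ligand, receptor and pathway lists, sorted within each list. Filled points passed the test over all genes, bars are list medians, and all filled points lie above 0. They are 1 of 5 ligand genes, 0 of 17 other Fgf genes (drawn as other ligands) and 2 of 5 receptor genes. The others are 8 of 19 partners, 4 of 16 transducers and 5 of 15 feedback and target genes. Over all genes 8.56% were called higher and 6.42% lower.

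The processing alternatives moved the 10 genes to different degrees. Averaging probe sets, the trend, the robust prior and the restriction to brighter genes cannot change a difference of these genes, only its test. Fgf7 ranged from 5.57 to 6.49 log2 units and Fgfr2 from 3.12 to 3.70 over all 9 alternatives, and both passed in each of the 6 that had a test. The sign changed in 2 instances, for Fgf1 and Fgf2 as given above.

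**Figure D4:**
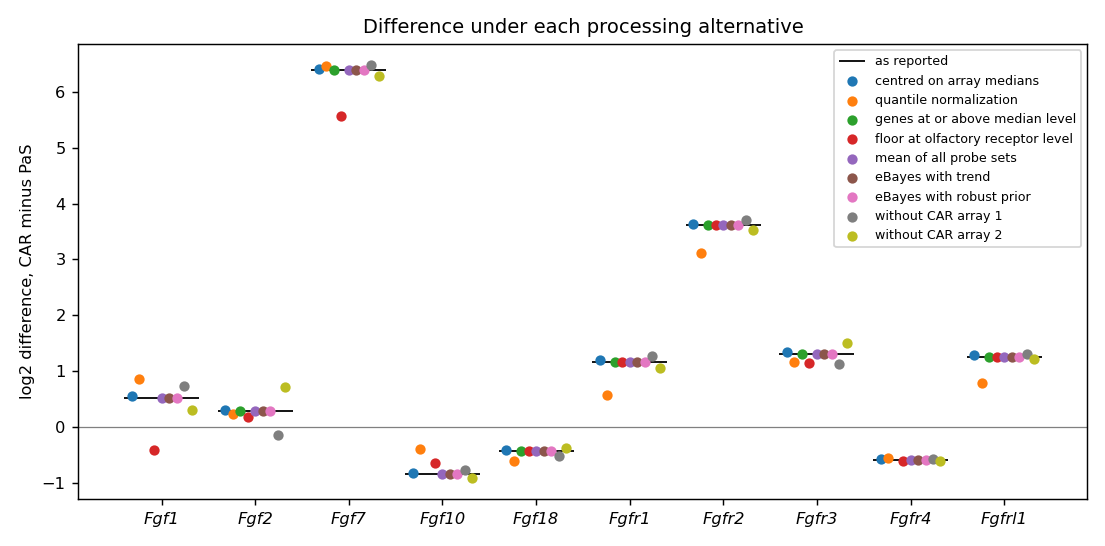
Log2 difference, CAR minus PaS (vertical axis), of each FGF gene as reported (line) and under each of 9 processing alternatives (points). Fgf7 stays at 5.57 or above and Fgfr2 at 3.12 or above, while Fgfr1 falls to 0.57 and Fgfrl1 to 0.79 after quantile normalization.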

How the data were processed

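The authors deposited 1 linear intensity per probe set for 35556 probe sets, made with Affymetrix Expression Console and RMA per the submitters' processing notes; the sources used here name no version or build. RMA corrects background, normalizes probes by quantiles and summarises probe sets. Log2 was taken without a pseudocount. Of the probe sets, 21789 carried 1 gene symbol, 1621 carried several and were not used, and 12146 were unnamed here; 21698 matched the current gene table. Of 19938 genes, 999 had several probe sets and kept the brightest.

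The deposited intensities had a median of 11.9 and 11.3 on the CAR arrays, against 12.8 for PaS. Interquartile ranges over genes were 1.96 and 2.28, against 1.35 log2 units. The deposited gene values thus did not share 1 distribution across the arrays, although RMA includes a quantile step. The reason was not tested. Both CAR arrays held equal values for 73 genes.

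CAR was compared with PaS with limma 3.58.1 in R 4.3.3 (lmFit, eBayes, two-sided, Benjamini-Hochberg over 19938 genes, threshold 0.05), with 1 residual degree of freedom, 4.20 prior degrees of freedom and a prior SD of 0.25. The spread comes from the CAR arrays alone, PaS is taken to vary to the same degree, and the number of arrays limits the precision.

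Members, gene lists and the naming rule were chosen with earlier results of these data known. Named were all members, up to 4 called genes per pathway list by size, the 3 genes nearest each called member, and Cxcl12, Lepr, Pdgfra and Ptprc; Fgf3, Fgf22, Fgf5, Fgf17, Kl, Klb, Gpc6, Dusp4 and Dusp6, the named markers, and the further genes of the closing section, were named after their values were seen.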

Additional observations from a re-analysis of the deposited data

How the results depend on the processing

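Of 87 values of the 10 FGF genes under 9 alternatives, 74 kept their direction and their side of the threshold or moved by less than the spread between CAR arrays. That count is no measure of stability, since much of it was fixed in advance. Leaving out 1 CAR array always moves a difference by less than that spread. Averaging probe sets, the trend, the robust prior and the restriction to brighter genes leave each difference as it was. The number of FGF genes called higher was 5 after centring on array medians, among the brighter genes (mean at least the median of all) and with a robust prior, where 12.3%, 20.7% and 10.9% of all genes tested were called higher, 2 with an intensity trend (8.09%) and 3 with quantile normalization (13.2%) and with probe sets averaged (8.35%), against 8.56% as reported; 0 were called lower in each. Their median difference was 0.68 after quantile normalization, 1.26 among the brighter genes, where 7 of the 10 remain, 0.66 with background-like values raised to the background level, and between 0.89 and 0.93 with 1 CAR array left out. Values that changed sign were Fgf1 at that background level (-0.42) and Fgf2 with 1 CAR array left out (-0.15 to 0.72; negative without CAR array 1).

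Quantile normalization called 2636 genes higher and 2831 lower, 48.2% of calls being higher against 57.1% as reported. It also called Fgf9 and Fgf21 (2 other ligands) higher and Fgf5, Fgf17 and Fgf23 (3) lower, 2 partners (Gpc3, Sulf2), 2 transducers (Ptpn11, Nras) and 1 feedback gene (Cbl) lower, and lost Fgfrl1 and Gpc6. Fgf9 and Fgf21 were background-like on all 3 arrays in the deposited values, so their calls are no measure of a change in expression. Averaging probe sets lost Spred2. Gpc3 was the 1 partner called lower after centring, with a trend and with a robust prior. Among the brighter genes 510 were called lower, 80.2% of calls were higher, and the median over the genes shifted by 0.46 log2 units; raising background-like values shifted it by -0.39. The mean used for the brighter genes is over 2 CAR arrays and 1 PaS array, so that filter favours genes higher in CAR cells. The floor was set for each array and differed between them. How much of either shift follows from these settings was not tested, and neither were other causes. That floor had no test because 7135 genes then have no spread between the CAR arrays, and leaving out a CAR array leaves 1 array against 1, so neither gives a count of calls. Leaving out the PaS array leaves no comparison. No paired analysis was possible because the groups share 1 replicate number only. Differences of dim genes are limited by the stand-in for background. Its level was higher on the PaS array (log2 value 4.02) than on the CAR arrays (3.50 and 3.25), and the reason was not tested.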
